A study of Mus musculus with 5 samples.

Results

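Keratins and adhesion molecules of epithelial cells were followed across cells of mesenchymal origin: the keratin genes Krt7, Krt8, Krt18 and Krt19, the E-cadherin gene Cdh1 and the adhesion gene Epcam. They were matched by name to the gene symbols of the platform annotation, not by a cut on their values, and all 6 had a probe. The list itself was chosen with earlier results of these data known. Epcam had 2 probes and the others 1 each, so the set covers 7 of 21876 named probes, and 6 of 19084 genes. RNA from 5 samples was read on single-colour arrays. MEF, on 1 array, are mouse embryonic fibroblasts that received a mock vector; they were grown from embryos of 13.5 days post coitus without head and viscera, and no sort for fibroblasts is given. The iLC, on 2 arrays, are such fibroblasts into which lentivirus carried 3 factors, Dmrt1, Gata4 and also Nr5a1, and were named by the submitters for their likeness to Leydig cells, the steroid-making cells of the testis. Leydig cells from testes of mice aged 56 days filled the other 2 arrays. Exposure to lentivirus is given as 12 h. Infected cells were fed medium holding PDGFAA (10 ng/ml) beside IGF (50 ng/ml), and the labels leave unsaid whether mock-treated cells had it too. Since no label calls the arrays of a pair separate cultures or separate mice, the p-values cover the spread between arrays alone, which may be technical, and so few arrays limit every value.

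Keratins build the intermediate filaments of epithelia, each filament pairing a type I with a type II chain. In simple epithelia the usual partners are Krt8 (type II) and Krt18 (type I), joined by Krt7 (type II) and Krt19 (type I) in ducts and in the mesothelium that lines body cavities. Cdh1 holds epithelial cells together at adherens junctions through catenins, and Epcam binds its like on a neighbouring cell. Fibroblasts and Leydig cells are mesenchymal and fill their filaments mainly with vimentin. Factors of the Snail and Zeb families repress Cdh1 and bind the hexamer CACCTG.

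Promoter sequences are shown because the choice of genes did not use them, and because that hexamer can be read in them. RefSeq promoters of build GRCm38.p6 matched 4 of the 6 genes (Krt19 and Cdh1 are named only). The 250 bases before the annotated start are printed 5′ to 3′, with CACCTG or its complement CAGGTG in capitals.
Krt7 chr15:101412153-101412402 (+ strand): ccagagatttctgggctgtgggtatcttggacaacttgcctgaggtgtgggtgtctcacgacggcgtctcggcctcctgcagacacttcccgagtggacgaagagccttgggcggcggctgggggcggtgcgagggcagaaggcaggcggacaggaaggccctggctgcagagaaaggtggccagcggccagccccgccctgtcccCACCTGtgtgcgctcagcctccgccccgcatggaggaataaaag
Krt8 chr15:102004343-102004592 (- strand): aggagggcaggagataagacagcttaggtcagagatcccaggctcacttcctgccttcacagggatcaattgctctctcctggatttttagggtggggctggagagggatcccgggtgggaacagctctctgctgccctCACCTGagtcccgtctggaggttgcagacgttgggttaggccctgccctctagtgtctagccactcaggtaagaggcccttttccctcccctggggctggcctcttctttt
Krt18 chr15:102027966-102028215 (+ strand): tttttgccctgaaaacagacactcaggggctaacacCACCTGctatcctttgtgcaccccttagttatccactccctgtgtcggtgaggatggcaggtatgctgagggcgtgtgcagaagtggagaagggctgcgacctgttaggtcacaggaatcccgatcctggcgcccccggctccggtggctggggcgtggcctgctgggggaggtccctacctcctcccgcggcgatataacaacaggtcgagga
Epcam chr17:87635729-87635978 (+ strand): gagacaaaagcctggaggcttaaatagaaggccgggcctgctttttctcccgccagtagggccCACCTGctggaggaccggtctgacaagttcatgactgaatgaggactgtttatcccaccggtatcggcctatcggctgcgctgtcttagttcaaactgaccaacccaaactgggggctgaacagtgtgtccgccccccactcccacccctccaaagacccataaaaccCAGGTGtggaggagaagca
All 4 windows hold the hexamer on either strand, as do 17.2% of 32851 windows of the same length. It begins 44 bases before the start in Krt7, 111 in Krt8, 214 in Krt18, and 187 and 19 in Epcam. The GC box core GGGCGG, read on both strands, occurs 4 times in Krt7 and 1 time in Epcam, and in 32.7% of all windows. TATAAA, read likewise, is in none of the 4 and in 12.4% of all. A match shows letters, not binding.

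The labels were first set against marker genes. The steroid enzyme genes Hsd3b1 and Cyp17a1 and the Leydig factor gene Nr5a1 were called higher in Leydig than in MEF. They are 3 of 6 measured Leydig markers, beside 3.34% of all genes called higher there. The call of Cyp17a1 was lost without Leydig replicate 2 and with 1 added before log2 (adjusted p = 0.051). Its difference stayed between 4.11 and 6.39 without any 1 iLC or Leydig array. The 6 summed to 7861 in MEF, 91270.4 and 113619 in the iLC pair, and 329985 and 362023 in the Leydig pair. Hsd3b1, reading 829.9 in MEF, 27160.1 and 34513 in the iLC pair, and 218338 and 95740.3 in the Leydig pair, and the cholesterol carrier gene Star, reading 695.0 in MEF, 56878 and 73892 in the iLC pair, and 1368 and 19703 in the Leydig pair, carry the iLC sums. Hsd3b1 was called between iLC and MEF (5.18, adjusted p = 0.033), a call lost without any 1 iLC or Leydig array and with 1 added. Star was not called there (6.51, adjusted p = 0.107). In the same comparison the differences were -0.38 for Cyp17a1, 0.39 for Cyp11a1, -0.32 for Hsd17b3 and 0.06 for Nr5a1. Between Leydig and MEF, Star (2.88), Cyp11a1 (-0.22) and Hsd17b3 (-0.09) were not called. Nr5a1 itself, a transgene in iLC, read 1265 in MEF, 1509 and 1158 in the iLC pair, and 68030.1 and 44721 in the Leydig pair, so its probe read no higher in iLC than in MEF beyond the spread of the pair, and the same holds for Dmrt1, also delivered, at 396.6 in MEF, 333.2 and 427.2 in the iLC pair, and 548.8 and 518.7 in the Leydig pair (-0.07, adjusted p = 0.954). Whether these probes lie within the delivered sequences is not known. Some germ cell transcripts differed within the Leydig pair. The sperm protamine gene Prm1 read 6235 and 141591 there and at most 238.1 elsewhere. The 11 germ cell markers summed to 17328 in MEF, 18791 and 22760.0 in the iLC pair, and 31142 and 386531 in the Leydig pair. Prm1, Prm2, Tnp1 and Tnp2 carried most of the sum on the second Leydig array. Ddx4, Dazl and Stra8 did not rise there, with Dazl reading 3150 and 2389 in the Leydig pair. In bulk RNA, fewer cells of a type and less RNA per cell cannot be told apart. The arrays also differed at their low end, with 1st percentiles of 83.8 in MEF, -10.1 and 23.7 in the iLC pair, and 36.9 and 21.0 in the Leydig pair.

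**Figure D1:**
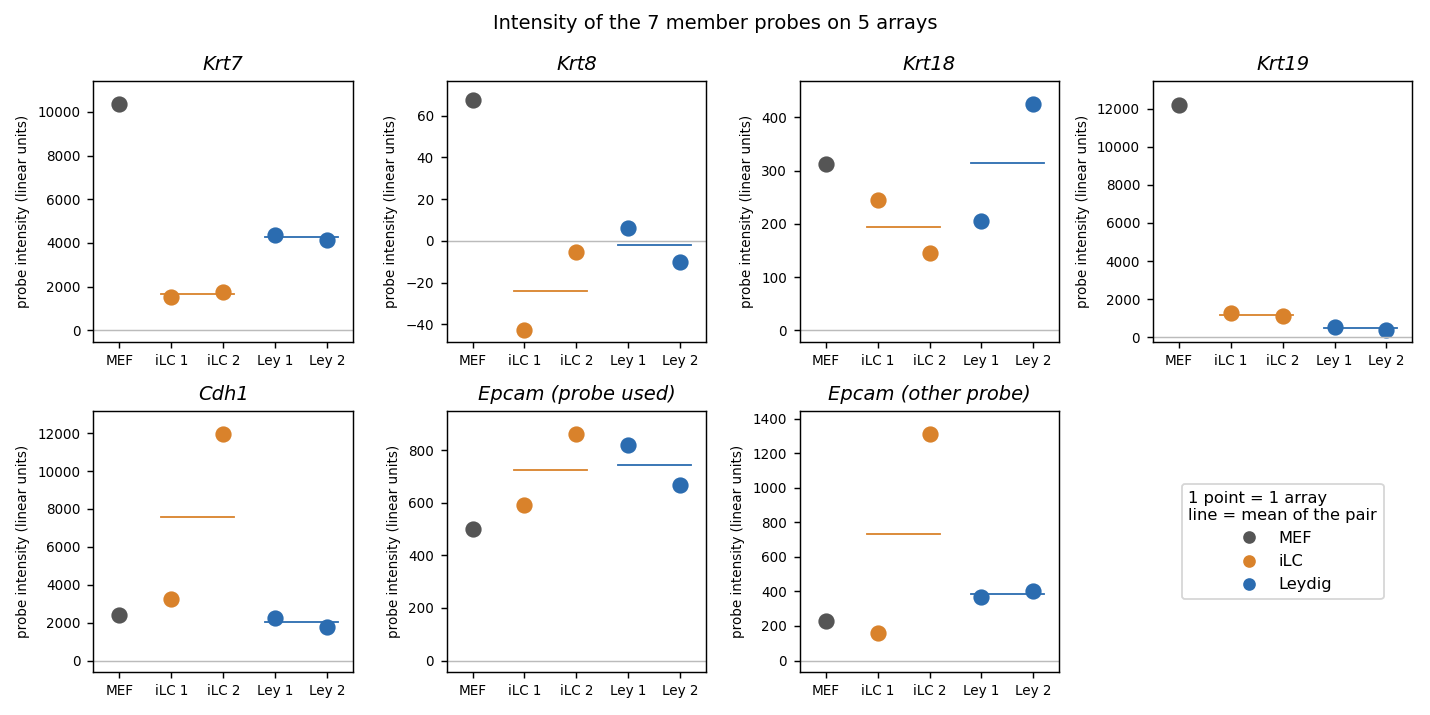
Probe intensity in linear units on each of the 5 arrays for the 7 member probes, 1 point per array, with a line at the mean of each pair. Krt19 and Krt7 are brightest in MEF (12216 and 10352), Cdh1 is brightest on the second iLC array (11934), and Krt8 stays between -42.8 and 67.5.

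Krt19, a type I keratin, was lower in iLC and in Leydig cells than in MEF. Its probe read 12216 in MEF, 1249 and 1109 in the iLC pair, and 557.0 and 361.5 in the Leydig pair. No group overlapped another, and both arrays of each pair lay close together beside the gap to MEF. Differences are given on the log2(intensity + 16) scale and tested with limma over 19084 genes, and a gene is called where its Benjamini-Hochberg adjusted p is under 0.05. Against MEF, iLC differed by -3.36 ± 0.42 (SE, adjusted p = 0.0396), 10.3-fold lower, and Leydig by -4.72 ± 0.42 (SE, adjusted p = 0.00398), 26.3-fold lower. Beside Leydig, iLC read higher by 1.36 (95% interval 0.52 to 2.20) without passing (adjusted p = 0.0583). All 3 comparisons share arrays and are not independent. Without any 1 iLC or Leydig array the difference between iLC and MEF stayed between -3.44 and -3.27, and its call was lost. Those fits called no gene in that comparison, so the loss is not particular to Krt19. Between Leydig and MEF the difference stayed between -5.02 and -4.42, and the call held without each of these arrays.

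Krt7, a type II keratin, followed another order, highest in MEF, intermediate in Leydig cells and lowest in iLC. It read 10352 in MEF, 1541 and 1743 in the iLC pair, and 4383 and 4131 in the Leydig pair. The groups did not overlap, and the pairs were tight. Krt7 was lower in iLC than in Leydig cells by a difference of -1.37 ± 0.30 (SE, adjusted p = 0.0379), or 2.58-fold, a call lost without any 1 iLC or Leydig array (adjusted p up to 0.163). The larger difference of -2.65 ± 0.37 (SE) between iLC and MEF did not pass (adjusted p = 0.0518), though it passed in 6 of 12 other settings, such as quantile normalization (adjusted p = 0.022). Leydig and MEF differed by -1.28 (95% interval -2.18 to -0.38, adjusted p = 0.109).

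Krt8, the type II partner in simple epithelia, had a probe at the bottom of every array. It read 67.5 in MEF, -42.8 and -5.16 in the iLC pair, and 6.15 and -10.1 in the Leydig pair. Only 55, 2, 13, 5 and 12 of 26423 probes were dimmer on these arrays in the same order, and each reading lay below its array's 1st percentile. Krt8 was called lower in Leydig cells than in MEF (-2.15 ± 0.40 SE, adjusted p = 0.0286). With the low ends of the arrays aligned this became -0.93 (adjusted p = 0.172) and with a floor at the 20th percentile -0.26 (adjusted p = 0.704), and the call was also lost without any 1 iLC or Leydig array (adjusted p up to 0.117). Between iLC and MEF the difference was -2.38 (adjusted p = 0.0708), and 0.07 after quantile normalization. This probe gives no measure of Krt8 RNA in these samples.

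Krt18, the type I partner of Krt8, was dim and passed no test. It read 312.8 in MEF, 244.3 and 144.5 in the iLC pair, and 205.2 and 424.6 in the Leydig pair. MEF and the first iLC array lie inside the Leydig pair, so the groups overlap. The difference was -0.69 (95% interval -2.04 to 0.67) between iLC and MEF, -0.61 (-1.72 to 0.49) between iLC and Leydig, and -0.07 (-1.43 to 1.28) between Leydig and MEF, intervals that hold changes of more than 2-fold.

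Cdh1 was high on 1 array of the iLC pair. It read 2420.3 in MEF, 3222 and 11934 in the iLC pair, and 2249.5 and 1771 in the Leydig pair. Both iLC arrays were above the other 3, yet they stood 3.69-fold apart, and 1.28% of all genes were raised as much or more from the first to the second. The difference was 1.35 ± 0.76 (SE, adjusted p = 0.453) between iLC and MEF, and 1.63 ± 0.62 (SE, adjusted p = 0.158) between iLC and Leydig. Without iLC replicate 1 the latter was 2.57 and passed (adjusted p = 0.0375); without iLC replicate 2 it was 0.69 (adjusted p = 0.423). Leydig and MEF differed by -0.28 (95% interval -2.12 to 1.56).

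Epcam passed in no comparison, and its probes disagreed within the iLC pair. The probe with the higher mean, used for the gene, read 501.8 in MEF, 589.9 and 859.6 in the iLC pair, and 817.5 and 665.9 in the Leydig pair, with MEF lowest and the other pairs overlapping. Its other probe read 230.0 in MEF, 159.9 and 1309.6 in the iLC pair, and 368.3 and 401.0 in the Leydig pair, where the iLC arrays were 8.19-fold apart and lay below and above all others. On the used probe the difference was 0.49 (95% interval -0.53 to 1.51) between iLC and MEF, -0.05 (-0.88 to 0.78) between iLC and Leydig, and 0.54 (-0.48 to 1.56) between Leydig and MEF.

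**Figure D2:**
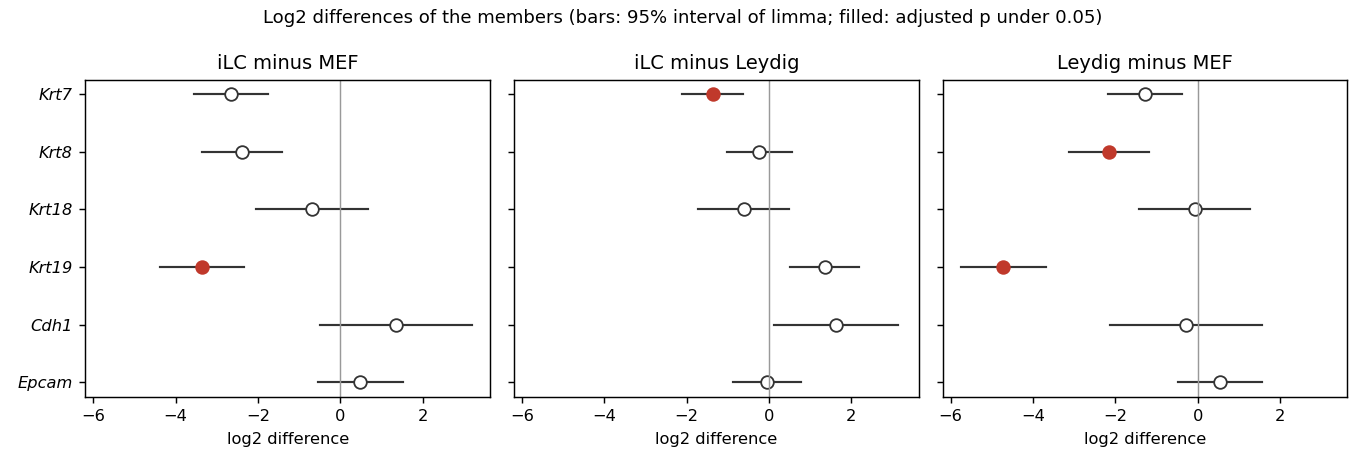
Log2 difference of each member (x axis, log2 units) in the 3 comparisons, with bars for the 95% interval of limma and filled points where the adjusted p is under 0.05. Krt19 is filled against MEF for iLC (-3.36) and Leydig (-4.72), Krt7 between iLC and Leydig (-1.37) and Krt8 between Leydig and MEF (-2.15); Cdh1 has the widest bars.

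Of the 6 members, 1 was lower and none higher in iLC than in MEF, where 0.561% of all genes were called (0.278% higher and 0.283% lower). In iLC against Leydig 1 was lower and none higher, where 11.4% were called (5.72% higher and 5.65% lower). In Leydig against MEF 2 were lower and none higher, 1 of them the bottom-of-scale Krt8 probe, where 7.30% were called (3.34% higher and 3.97% lower). The members' median difference was -1.53, -0.14 and -0.78 in these comparisons, beside -0.11, -0.03 and -0.10 for all genes. Without the Krt8 readings, left out after the data were seen, it was -0.69, -0.05 and -0.28, and after quantile normalization of all 6 it was -0.18, 0.17 and -0.32. In counts, 53 genes were higher and 54 lower between iLC and MEF, a split of 142 and 238 once each array was centred on its median.

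Most other keratins stayed near no difference. All 45 others named by symbol were measured, 24 of type I and 21 of type II, and 42 of them differed by less than 1 log2 unit between iLC and MEF, 41 between iLC and Leydig, and 44 between Leydig and MEF. Most genes were likewise near 0: in these comparisons 12.4%, 16.2% and 17.7% of all genes differed by more than 1.35, 1.37 and 1.28. Krt12, Krt25, Krt28, Krt73 and Krt75 were among those below the 25th percentile of every array, where a small difference says little about RNA. Of 49 keratins, Krt19 and Krt7 had the lowest differences between iLC and MEF. The others that were called were Krt23 and Krt20, both of type I.

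Krt23 moved opposite to Krt19 in iLC. It read 611.2 in MEF, 7062 and 8839.8 in the iLC pair, and 719.1 and 516.2 in the Leydig pair, with the iLC pair far above arrays that overlap among themselves. It rose from MEF to iLC by 3.66 ± 0.41 (SE, adjusted p = 0.0334), a call lost without any 1 iLC or Leydig array, as was every call in that comparison. It was higher in iLC than in Leydig by 3.66 ± 0.34 (SE, adjusted p = 0.00214), held without each iLC or Leydig array. Krt20, a keratin of gut and urinary epithelium, was low in Leydig cells. It read 7089 in MEF, 5175 and 10857 in the iLC pair, and 554.9 and 990.4 in the Leydig pair. The MEF value lies inside the iLC pair. Krt20 differed by 3.31 (adjusted p = 0.00973) between iLC and Leydig, lost without either Leydig array (adjusted p up to 0.0717), and by -3.23 (adjusted p = 0.0275) between Leydig and MEF, lost without either Leydig array (adjusted p up to 0.119).

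**Figure D3:**
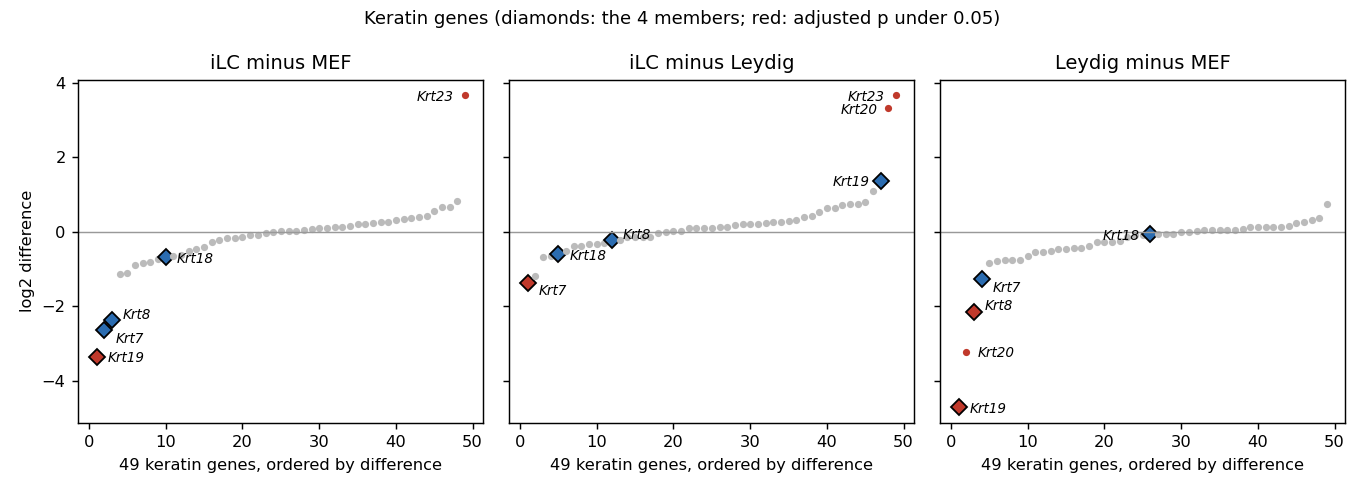
Log2 differences (y axis) of the 49 keratin genes in the 3 comparisons, ordered from lowest to highest on the x axis, with diamonds for the 4 members and red for an adjusted p under 0.05. Krt19 is lowest against MEF in both comparisons, Krt23 is highest between iLC and MEF (3.66), and most others lie near 0.

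For genes that work with E-cadherin and for the lists after them, counts stand beside the 0.561%, 11.4% and 7.30% of all genes called between iLC and MEF, iLC and Leydig, and Leydig and MEF. None of 14 cadherins and catenins passed between iLC and MEF (median -0.23), with the vinculin gene Vcl (-1.52, adjusted p = 0.197) and Cdh6 (1.09, adjusted p = 0.365) furthest from 0. Compared with Leydig cells, 6 were higher and 1 lower in iLC (median 1.32). Jup, which encodes the plakoglobin of adherens junctions and desmosomes, read 7139 in MEF, 5834 and 4414 in the iLC pair, and 476.0 and 596.1 in the Leydig pair, higher in iLC by 3.21 (adjusted p = 0.00297). Cdh2, the N-cadherin gene of mesenchyme, read 20213 in MEF, 23017 and 12771 in the iLC pair, and 2292 and 2464 in the Leydig pair, higher by 2.84 (adjusted p = 0.00734), lost without either Leydig array (adjusted p up to 0.0741). Cdh6 was higher by 4.58 (adjusted p = 0.00204), with Leydig readings of 16.4 and 0.841 below their 1st percentiles, so the size of its differences from Leydig cells rests on low-end values. Vcl (2.17), the osteoblast cadherin gene Cdh11 (2.34) and the placental cadherin gene Cdh3 (1.69) complete the higher ones, and Cdh5, the cadherin gene of endothelium, was lower (-2.76, adjusted p = 0.00624). Between Leydig and MEF 1 was higher and 6 lower (median -1.47): Cdh5 was higher (3.37, lost without Leydig replicate 2, adjusted p up to 0.052), and Jup (-3.70, lost without Leydig replicate 2, adjusted p up to 0.0551), Vcl (-3.70, lost without either Leydig array, adjusted p up to 0.0578) and Cdh6 (-3.49, lost without Leydig replicate 2, adjusted p up to 0.0704) were among the lower ones. The last was also lost with 1 added before log2 (adjusted p = 0.0906) and with the floor at the 20th percentile (adjusted p = 0.713).

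Desmosome genes gave no call between iLC and MEF among 16 measured (median 0.29). Perp, a desmosome protein gene, read 1351 in MEF, 11187 and 24871 in the iLC pair, and 265.7 and 406.9 in the Leydig pair. Both iLC arrays were far above the others, but 3.61 between iLC and MEF did not pass (adjusted p = 0.0655), while 5.60 between iLC and Leydig did (adjusted p = 0.00186). The former was called in 5 of 12 other settings, such as quantile normalization (adjusted p = 0.0293). Pkp2, a desmosomal plakophilin gene, differed by -1.72 between iLC and MEF (adjusted p = 0.136). In iLC against Leydig 3 were higher and 1 lower (median 0.51): Perp, Jup and the plakin gene Dst (1.80, adjusted p = 0.0379, lost without iLC replicate 2 or either Leydig array, adjusted p up to 0.163) were higher. Ppl, the periplakin gene, was the lower one (-5.14, adjusted p = 0.00297), reading 506.9 in MEF, 571.9 and 705.9 in the iLC pair, and 13586 and 38804 in the Leydig pair. In Leydig against MEF 1 was higher, Ppl (5.46), and 2 lower, Jup and Pkp2 (-2.88, lost without either Leydig array, adjusted p up to 0.065), with a median of -0.20.

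Tight junction genes, which seal epithelial sheets, also gave no call between iLC and MEF among 17 measured (median -0.02). The claudin gene Cldn4 read 1056 in MEF, 3105 and 6786 in the iLC pair, and 958.1 and 928.2 in the Leydig pair, a difference of 2.10 (adjusted p = 0.15), and Cldn8 differed by -1.76 (adjusted p = 0.168). Against Leydig cells 1 was higher and 2 lower in iLC (median 0.35). Cldn4 was higher (2.26, adjusted p = 0.0241), lost without iLC replicate 2 or either Leydig array (adjusted p up to 0.156). Cldn11, a claudin gene of the testis, was lower (-2.82, adjusted p = 0.00991), lost without iLC replicate 1 or Leydig replicate 1 (adjusted p up to 0.0655), and so was F11r (-1.62, adjusted p = 0.0228), lost without any 1 iLC or Leydig array (adjusted p up to 0.121). Only Cldn11 was called of these 17 between Leydig and MEF (2.72, adjusted p = 0.0291, list median -0.25), lost without any 1 iLC or Leydig array (adjusted p up to 0.0856).

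Partners of Epcam and the proteases that act on it were measured for 10 genes, of which none passed between iLC and MEF (median 0.25). The protease gene Prss8 read 255.5 in MEF, 2917 and 2074 in the iLC pair, and 722.1 and 355.6 in the Leydig pair, a difference of 3.19 (adjusted p = 0.0696), and Spint1, an inhibitor gene of such proteases, read 502.9 in MEF, 2199 and 6649 in the iLC pair, and 460.6 and 329.6 in the Leydig pair, a difference of 2.89 (adjusted p = 0.13). Both iLC arrays exceeded all others for each gene, and Prss8 was called between iLC and MEF in 5 of 12 other settings, such as quantile normalization (adjusted p = 0.0327). In iLC against Leydig 4 were higher and 1 lower (median 0.52). Cd44, the hyaluronan receptor gene, was higher by 3.81 (adjusted p = 0.00517), Spint1 by 3.24 (adjusted p = 0.0164), lost without either Leydig array (adjusted p up to 0.146), and Prss8 by 2.24 (adjusted p = 0.0242), lost without either iLC array or Leydig replicate 2 (adjusted p up to 0.123). The fourth was the matriptase gene St14 (2.10, adjusted p = 0.0158). Tspan8, a tetraspanin gene, was lower (-5.98, adjusted p = 0.0176), lost without either iLC array (adjusted p up to 0.0915). Its Leydig readings of 2044 and 23583 differ in the direction of Prm1. Those of Ppl and Cyp17a1 do too, and those of Hsd3b1 and Nr5a1 do not. The part of germ cells in these readings was not tested. Only Cd44 was called between Leydig and MEF, lower by a difference of -5.33 (adjusted p = 0.00589, list median -0.07).

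Regulators of the epithelial state were mostly dim, and none of 16 passed between iLC and MEF (median 0.16). Grhl1, a grainyhead factor gene of epithelia, read 112.4 in MEF, 720.5 and 3628 in the iLC pair, and 78.0 and 190.8 in the Leydig pair. Its difference of 3.67 between iLC and MEF did not pass (adjusted p = 0.159), nor did -1.64 for Klf5 (adjusted p = 0.15), which is active in proliferating epithelium. In iLC against Leydig 3 were higher and 1 lower (median 0.55): Grhl1 (3.55, adjusted p = 0.0382), lost without iLC replicate 2 or either Leydig array (adjusted p up to 0.195), the forkhead gene Foxa1 (2.73, adjusted p = 0.00653), lost with the floor at the 20th percentile (adjusted p = 0.124), and Tfap2c (2.01, adjusted p = 0.0163), lost without either iLC array or Leydig replicate 2 (adjusted p up to 0.101), were higher. Ovol2, which represses mesenchymal genes, was lower (-2.96, adjusted p = 0.0402), lost without iLC replicate 1 or either Leydig array (adjusted p up to 0.247), with 1 added (adjusted p = 0.0889) and with the floor (adjusted p = 0.1). These 4 genes fall below the 25th percentile of mean levels and leave the test under the filter on dim genes. Klf5 was the 1 gene called between Leydig and MEF (-2.48, adjusted p = 0.0212, list median -0.33), lost without either Leydig array (adjusted p up to 0.0989).

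Of 11 genes for repressors of Cdh1 or other mesenchymal factors, none passed between iLC and MEF (median -0.34). Snai3 (1.44, adjusted p = 0.327) and Twist1 (-1.30, adjusted p = 0.205) were furthest from 0. In iLC against Leydig 3 were higher and 2 lower (median 0.24). The mesenchymal factor genes Twist2 (4.21, adjusted p = 0.00331, lost without Leydig replicate 2, adjusted p up to 0.0543), Prrx1 (2.73, adjusted p = 0.00408) and Foxc2 (1.78, adjusted p = 0.0211, lost without any 1 iLC or Leydig array, adjusted p up to 0.118) were higher, and Tcf4 (-2.13, adjusted p = 0.0227, lost without either iLC array or Leydig replicate 1, adjusted p up to 0.108) and Twist1 (-1.40, adjusted p = 0.0422) were lower. Between Leydig and MEF 3 were lower and none higher (median -0.45): Twist2 (-4.04, lost without either Leydig array, adjusted p up to 0.092), Prrx1 (-2.83, lost without either Leydig array, adjusted p up to 0.0737) and Foxc2 (-1.94, lost without any 1 iLC or Leydig array, adjusted p up to 0.146).

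The iLC arrays differed from each other for some epithelial genes beside Cdh1, in both directions. The log2 difference was 2.31 for Grhl1, 1.91 for Ovol2, 1.88 for Cdh1, 1.59 for Spint1, 1.15 for Perp and 1.12 for Cldn4. It was 0.18 for Krt7, -0.17 for Krt19, -0.90 for Cldn7, -0.69 for Cldn6 and -0.49 for Prss8. All were picked after their values were seen. Ovol2 is among the genes below the 25th percentile of mean levels, and the 1st percentiles of these arrays were -10.1 and 23.7. Its difference may therefore hold low-end values. By list, 4 of 17 tight junction genes, 3 of 16 epithelial regulators and 0 of 14 cadherins and catenins were higher by over 1. So were 1 of 16 desmosome genes, 1 of 10 Epcam partners and proteases and 7 of 45 other keratins, beside 6.84% of all genes. Another 3 of these 45 keratins were lower by over 1, as were 549 of all 19084 genes. Macrophage markers were higher on the second iLC array too, 5 of 9 by over 1 (median 1.23), and their part in the result was not tested. A difference between 2 arrays has no test.

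**Figure D4:**
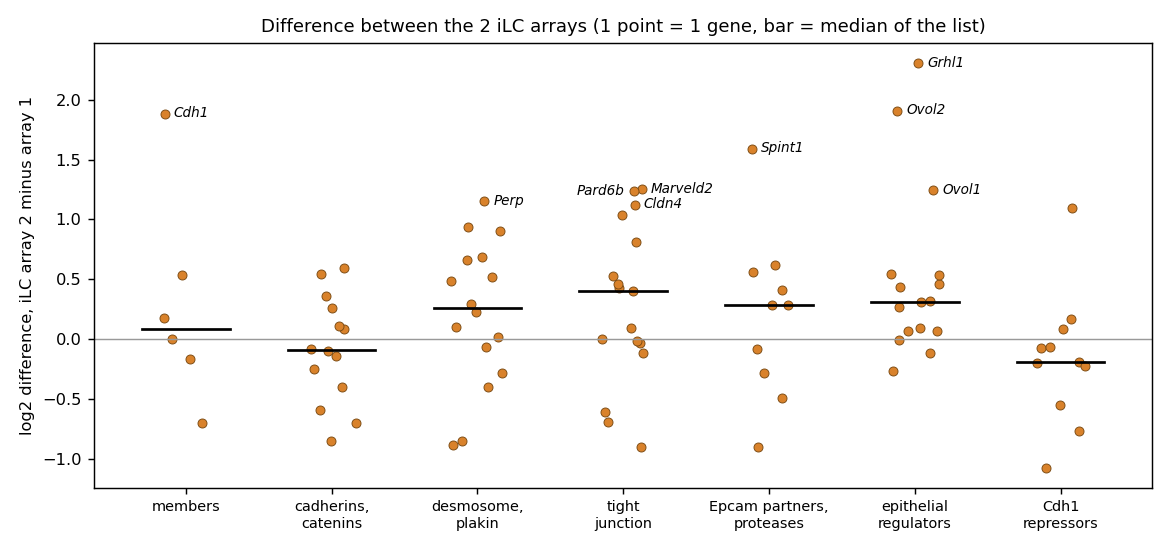
Log2 difference between the 2 iLC arrays (second minus first, y axis) for the members and for lists of junction genes and regulators, 1 point per gene, with a bar at each median. Grhl1 (2.31), Ovol2 (1.91, a dim gene) and Cdh1 (1.88) stand high, and Krt18 (-0.70) low among the members.

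Other cell types that could carry keratins were set beside them. The 10 mesothelial markers summed to 15421 in MEF, 22484 and 26452 in the iLC pair, and 8638 and 6679 in the Leydig pair. In iLC the sum was carried by the mesothelin gene Msln, which read 6697 in MEF, 13008 and 14709.6 in the iLC pair, and 239.0 and 149.7 in the Leydig pair, and the claudin gene Cldn15, picked after its values were seen, which read 1562 in MEF, 5194 and 8931 in the iLC pair, and 3026 and 1196 in the Leydig pair. Of the 10, 7 had a difference below 0 between iLC and MEF and 3 above (median -0.59), and the uroplakin gene Upk3b, picked likewise, read 1079 in MEF, 344.5 and 313.7 in the iLC pair, and 173.4 and 338.8 in the Leydig pair (-1.67, adjusted p = 0.188). The 6 measured duct epithelium markers summed to 26451 in MEF, 31973 and 32382 in the iLC pair, and 24203 and 21566 in the Leydig pair. Lcn8 and Emx2 carried most of the sum in MEF and iLC, and Lcn8 in Leydig cells. The 9 macrophage markers summed to 152408 in MEF, 43180.4 and 88386 in the iLC pair, and 23645 and 22982 in the Leydig pair. C1qa (44571) and C1qb (41769) carried most of their sum in MEF. All 9 had a difference below 0 between iLC and MEF, and 8 between Leydig and MEF, where Ptprc lay above 0. The 5 smooth muscle markers summed to 584564 in MEF, 536077 and 478245 in the iLC pair, and 33772 and 49212 in the Leydig pair. Both sums were highest in MEF, as Krt19 was. The smooth muscle sum was carried by Acta2, which read 466436 in MEF, and 493313 and 439352 in the iLC pair. All 5 smooth muscle markers had a difference below 0 between iLC and MEF (median -1.17). None of these lists had a gene called between iLC and MEF, and their part in the keratin values was not tested.

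Genes with the most similar profiles were found by Euclidean distance of log2 values over the 5 arrays, each less its own mean, a description with no test. For Krt19 they were Pimreg (0.43), Prc1 (0.46) and Cenpa (0.51), genes of cell division; Prc1, which bundles microtubules in cytokinesis, read 133893 in MEF, 10605 and 11769.6 in the iLC pair, and 7309 and 4484 in the Leydig pair. For Krt7 they were Tent5d (0.21), Fgg (0.31) and Mpig6b (0.37), which read at most 85.9 on any array, at the unequal low end. For Cdh1 they were Pdyn (0.22), Hpx (0.33) and Il24 (0.37), all highest on the second iLC array. For Epcam they were Akr1e1 (0.14), Cyria (0.15) and Tmem150a (0.16), for Krt18 Stk40 (0.12), Cd209c (0.16) and Yars (0.16), and for Krt8 Wdhd1 (0.16), Zpld1 (0.22) and Itgbl1 (0.23). The profile of Krt8 is made of readings below the 1st percentiles, so its neighbours describe no Krt8 level.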

How the data were processed

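Per the labels' protocols, amplified RNA was labelled with Cy5 and hybridised to 1 array per sample. The deposited probe intensities are linear values that the authors had processed; for their background correction, normalization, software and spot flags, the labels and headers used here state nothing. Titles gave the groups. Of 26423 probes, 21876 had 1 gene symbol and 4547 none. For 2424 genes with several probes the one with the highest mean log2 value was used. Negative values were set to 0 and 16 added before log2. A mean per group was fitted with limma 3.58.1 in R 4.3.3 over all arrays, two-sided, with 2 residual and 4.21 prior degrees of freedom; MEF, on 1 array, takes its spread from the pairs. The fit was tested on simulated data. Members and gene lists were chosen with earlier results of these data known. Named were all member probes, up to 4 called genes per list or else the 2 largest differences, and the 3 nearest profiles per member. Alternatives changed the added constant (1 or 64), a floor, a filter on dim genes, the scaling, the low ends, the use of several probes, and the arrays included.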

Additional observations from a re-analysis of the deposited data

How the results depend on the processing

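Members called between iLC and MEF, iLC and Leydig, and Leydig and MEF numbered 1, 1 and 2 as reported. They numbered 0, 0 and 1 with 1 added before log2, 2, 2 and 1 with 64 added, 2, 2 and 1 with the floor, 2, 2 and 1 with the filter on dim genes, which removes Krt8 and Krt18, 2, 2 and 1 with aligned low ends, 2, 1 and 1 after quantile normalization and 3, 1 and 2 after median centring. All genes called between iLC and MEF, 107 as reported, numbered 9, 290, 326, 265, 369 and 380 with 1 added, 64 added, the floor, the filter, quantile normalization and median centring; 3005 genes had an unadjusted p under 0.05 as reported. With 1 iLC or Leydig array left out, limma called 0 to 0 genes between iLC and MEF, 696 to 1271 between iLC and Leydig and 153 to 964 between Leydig and MEF, and 0 to 0, 0 to 1 and 1 to 1 members. That leaves 1 residual degree of freedom. The labels do not say whether replicate numbers of iLC and Leydig pair the samples. Deviations of equal numbers correlated at 0.06 across genes, and with 2 pairs this cannot decide it. The replicate block on those 4 arrays gave 3 members (Krt7, Krt19 and Cdh1) and 3440 genes in all, with 1 residual degree of freedom. Its prior degrees of freedom were infinite, so all genes took a common variance and a gene's own spread did not count. Cdh1, whose iLC arrays stood 3.69-fold apart, was called on that variance. The median of all genes between iLC and MEF moved from -0.11 to 0.05 with quantile normalization and 0.11 with aligned low ends. For single named genes, 186 results lost and 36 gained a call under an alternative, 1490 stayed on their side, and no called difference changed sign. With 1 added, lost calls included Krt19, Krt23, Nefm and Nefl between iLC and MEF, Krt7, Grhl1 and Dst between iLC and Leydig, and Krt20, Cldn11 and Foxc2 between Leydig and MEF. For St14, Cdh3, Cdh11, Vcl and Twist1 between iLC and Leydig, no fit with an array left out is given. Leaving out Krt8, chosen after the data were seen, bears on the members' median alone.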

Other observations

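Intermediate filament genes outside the keratins differed as well. The vimentin gene Vim, the mesenchymal counterpart of the keratins, read 218063 in MEF, 236317 and 189589 in the iLC pair, and 170193 and 180020.0 in the Leydig pair and passed in no comparison. Of 12 such genes 2 were higher in iLC than in MEF (median -0.16), both for neurofilaments of neurons. Nefm read 732.8 in MEF, 20955 and 51053 in the iLC pair, and 115.9 and 149.7 in the Leydig pair, a log2 difference of 5.45 between iLC and MEF (adjusted p = 0.033). Its call was lost without any 1 iLC or Leydig array, as was every call in that comparison. Nefl read 233.0 in MEF, 7355 and 29258 in the iLC pair, and 188.7 and 194.2 in the Leydig pair, a difference of 5.88 between iLC and MEF (adjusted p = 0.0461), lost in the same way. In iLC against Leydig 4 were higher and none lower (median 0.50): Nefm (7.79), Nefl (6.15, lost without Leydig replicate 2, adjusted p up to 0.0575), the nestin gene Nes (5.97) and the desmin gene Des (3.00). In Leydig against MEF 2 were lower (median -0.70), Nes (-6.59) and Des (-3.48, lost without Leydig replicate 2, adjusted p up to 0.0622).

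Emx2, a homeobox gene of the urogenital tract, was the duct epithelium marker that was called. It read 8688 in MEF, 9386 and 9238 in the iLC pair, and 427.7 and 259.8 in the Leydig pair. The difference was 4.74 (adjusted p = 0.00148) between iLC and Leydig and -4.64 (adjusted p = 0.00435) between Leydig and MEF. Both calls held without each iLC or Leydig array, and the latter rests on the lone MEF array.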
